A study of Homo sapiens with 2 samples.

Results

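CALM2 and CALM3 are separate human genes that encode the same protein, calmodulin. They were chosen by their symbols, with the contrast of edited positions between the RBFOX2 and the enzyme-only library known, so every value of that contrast below is a description and carries no test. Together they held 92 of the 213041 positions listed in either library, 80 in CALM2 and 12 in CALM3, and they are 2 of the 12178 genes with a listed position. Each gene matched 1 locus of the deposited isoform models, PB.6162 for CALM2 and PB.47518 for CALM3.

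Calmodulin is a small calcium sensor. On binding calcium it changes shape and switches on kinases such as the CaMK family, the phosphatase calcineurin, and calcium pumps and channels. The messages of CALM2 and CALM3 differ mainly in the untranslated regions. RBFOX2 is an RNA-binding protein best known for splicing; its preferred sequence is UGCAUG, and GCAUG is its core.

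The cells were HEK293XT, an immortalized line of human kidney origin (the sample titles write HEK293T), fixed and permeabilized before any enzyme was added. In the RBFOX2 library a rabbit antibody against RBFOX2 was bound by APOBEC1, a cytidine deaminase, fused to a nanobody against rabbit IgG, so that cytosines near the antibody could be converted to uracil. The enzyme-only library received the fusion without that antibody, and it serves as the background here. Both libraries were full-length cDNA read on a PacBio instrument, and each group was 1 library. Intervals below are exact binomial (Clopper-Pearson) at 95% and cover counting error only, and the difference between the groups cannot be told apart from a difference between libraries.

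A position was listed where more than 0.2% of the reads of its gene carried the conversion. The read total is 1 value per gene and library, so the smallest number of converted reads that is listed rises with depth. CALM2 had 1816 RBFOX2 and 1271 enzyme-only reads, a ratio of 1.43 where the median over 8203 genes was 1.1. CALM3 had 1406 and 1209 reads. To compare the libraries, the minimum of the deeper one was applied to both, which is 4 converted reads in CALM2 and 3 in CALM3. This still favours the deeper library, since 4 reads are 0.22% of the RBFOX2 reads of CALM2 and 0.315% of its enzyme-only reads. A position that is not listed was not taken as 0. It can be below the minimum or have been removed, since the paper describes taking out putative and annotated SNPs. The putative ones were edits seen in all its samples and replicates. Whether the deposited lists were made before or after that step is not stated.

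The sequences around UGCAUG come first, because they are the places where RBFOX2 binding would be looked for. On hg38, CALM2 (ENSG00000143933.20) lies on the minus strand at chr2:47160084-47176921, and its main transcript has 6 exons, 447 coding bases and a 3′UTR of 692 nt. CALM3 (ENSG00000160014.17) lies on the plus strand at chr19:46601074-46610782 and has the same number of exons and coding bases, with a 3′UTR of 1629 nt. Each 3′UTR holds 2 copies of UGCAUG, shown in capitals within 30 nt windows.
CALM2, 107 nt after the stop codon, chr2:47160652-47160681: gucaaaaaaauaUGCAUGuauaguaauuag
CALM2, 209 nt after the stop codon, chr2:47160550-47160579: caaguaacauguUGCAUGuggcuuacucug
CALM3, 155 nt after the stop codon, chr19:46609296-46609325: uuugucccaagcUGCAUGauugcucuuucu
CALM3, 459 nt after the stop codon, chr19:46609600-46609629: gcccuuugccguUGCAUGcaaccagcccug

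The CALM2 positions with the most converted reads are shown next, with the edited cytosine in capitals in 21 nt windows. Of these 5, 3 of them tied at 21 converted reads, only 47160646 lies within 100 nt of a UGCAUG, 18 nt 3′ of it. The CALM2 3′UTR also holds a GCAUG outside its UGCAUG copies, 332 nt after the stop codon. Position 47160459 lies 15 nt 5′ of that GCAUG, and 47160403, 47160380 and 47160295 lie 37, 60 and 145 nt 3′ of it. The base 5′ of the cytosine is A in 3 of the 5 positions and U in 2.
CALM2 47160459: aaguaguuuuCuuuaggaacu
CALM2 47160380: acaauauguaCuuaaaaguug
CALM2 47160295: guaccagaaaCauuuucuuuu
CALM2 47160403: ucugcguggaCuauggacagu
CALM2 47160646: auuaggacuuCauuccuccau

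At the common minimum, CALM2 held 74 RBFOX2 positions against 10 enzyme-only positions, and CALM3 held 11 against 4. Among 672 genes with enough reads and positions to compare, 215 (32.0%) were past 2-fold higher in positions per gene read in the RBFOX2 library and 37 (5.51%) past 2-fold lower. Both members were past 2-fold higher, at log2 ratios of 2.31 (CALM2) and 1.14 (CALM3) against a median of 0.56 over the 672 genes; since this contrast chose them, nothing is read from that. CALM2 ranked 1 by its number of positions in the RBFOX2 library, a rank shared with PRDX3 at 74, and 27 by the log2 ratio. CALM3 ranked 297 and 178.

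Summed over positions, CALM2 had 764 converted reads with the RBFOX2 antibody and 52 without it, which is 421 and 40.9 per 1000 gene reads. A read converted at several positions counts at each of them, so such sums are of conversions and not of different reads. The ratio of the sums per gene read was 10.3 (7.76 to 13.9), with an interval that takes the conversions as independent. It was 5.35 (4.34 to 6.65) with every position as listed, 37.1 (19.4 to 81.6) without the positions shared by both libraries and 54.2 (27.3 to 126) at 2 times the minimum. In CALM3 there were 41 and 17, or 29.2 and 14.1 per 1000 gene reads, a ratio of 2.07 (1.15 to 3.89), which was 7.74 (2.38 to 39.9) without shared positions and 1.15 (0.349 to 4.01) at 2 times the minimum. A minimum set as an edit fraction, chosen after seeing the data, left CALM2 at 52 against 10 positions and a ratio of 8.94, but CALM3 at 3 against 4 positions and a ratio of 0.86 (0.413 to 1.79). The direction in CALM3 depended on how the minimum was set, and that in CALM2 did not. Thinning the RBFOX2 reads to the enzyme-only depth, also chosen after seeing the data, left 58.7 expected positions in CALM2 and 7.97 in CALM3.

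Single CALM2 positions were edited in few reads. The edit fraction over the 74 positions had a median of 0.496% and ran from 0.22% to 1.76%, and 10 positions sat at exactly the minimum of 4 converted reads. In the enzyme-only library 16 listed positions had 3 converted reads, just under it. In the RBFOX2 library 32 positions had 10 or more converted reads, and in the enzyme-only library the highest had 8. In CALM3, 8 of the 11 positions were at the minimum of 3, and the highest in the RBFOX2 library was 8 reads of 1406.

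The highest CALM2 position was 47160459, 317 nt after the stop codon, with 32 of 1816 RBFOX2 reads (1.76%, 1.21 to 2.48) and 3 of 1271 enzyme-only reads (0.236%). The ratio of edit fractions was 7.47 (2.34 to 38.1). Next came 47160380 with 31 against 6 reads, a ratio of 3.62 (1.49 to 10.6). Position 47160403 had 21 against 5, a ratio of 2.94 (1.08 to 9.98). Positions 47160295 and 47160646 had 21 reads each and were not listed in the enzyme-only library, so they were at least 7.35-fold higher, counting the unlisted side as just under its minimum. At the shared positions named so far the interval of the ratio lay above 1. They were picked for their many RBFOX2 reads, which favours a high ratio, so nothing is read from that.

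CALM2 positions were listed in both libraries at 20 places, which is 27% of its RBFOX2 positions and 76.9% of its enzyme-only positions. Over all genes, 121930 RBFOX2 and 103684 enzyme-only positions were listed, 213041 in either library. Those totals hold genes of every depth, so they are not matched to CALM2. The ratio of edit fractions was above 1 at 18 of the 20, with a median of 2.43, and its interval lay above 1 at 5 and below 1 at none. The exceptions were 47160477 (8 reads in each library, 0.7) and 47162617 (4 against 3, 0.93). Shared at lower counts were 47160210 (9 against 5), 47160488 (8 against 3), 47160344 (7 against 3) and 47160630 (6 against 3). Further positions with 10 or more reads and shared were 47160396 (19 against 6), 47160519 and 47160748 (18 against 3 and 18 against 5), 47160277 (16 against 4), 47160616 (16 against 3), 47160532 (15 against 3), 47160720 (14 against 3), 47160367 (13 against 3), 47160690 (12 against 4), and 47160329 and 47162634 (10 against 3 each). CALM3 shared 3 positions, 46608498 (8 against 5), 46610039 (3 against 6) and 46610295 (3 against 3), with a median ratio of 0.86 and no interval clear of 1.

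The other CALM2 positions with 10 or more RBFOX2 reads were not listed in the enzyme-only library. They were 47160251 and 47160316 (20 reads each), 47160612 (14), 47162658 (12), 47160389 and 47160620 (11 each), 47160264, 47160289 and 47160337 (10 each), beside those near UGCAUG and the coding change T147I given below. Listed without the antibody only were 6 CALM2 positions, of which 47160708 (5 reads) and 47160725 (3 reads) lie in the 3′UTR and the others in coding sequence. In CALM3 the RBFOX2 positions outside the shared ones had 3 to 5 reads, and the enzyme-only library alone listed 46609247 with 3 reads.

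**Figure D1:**
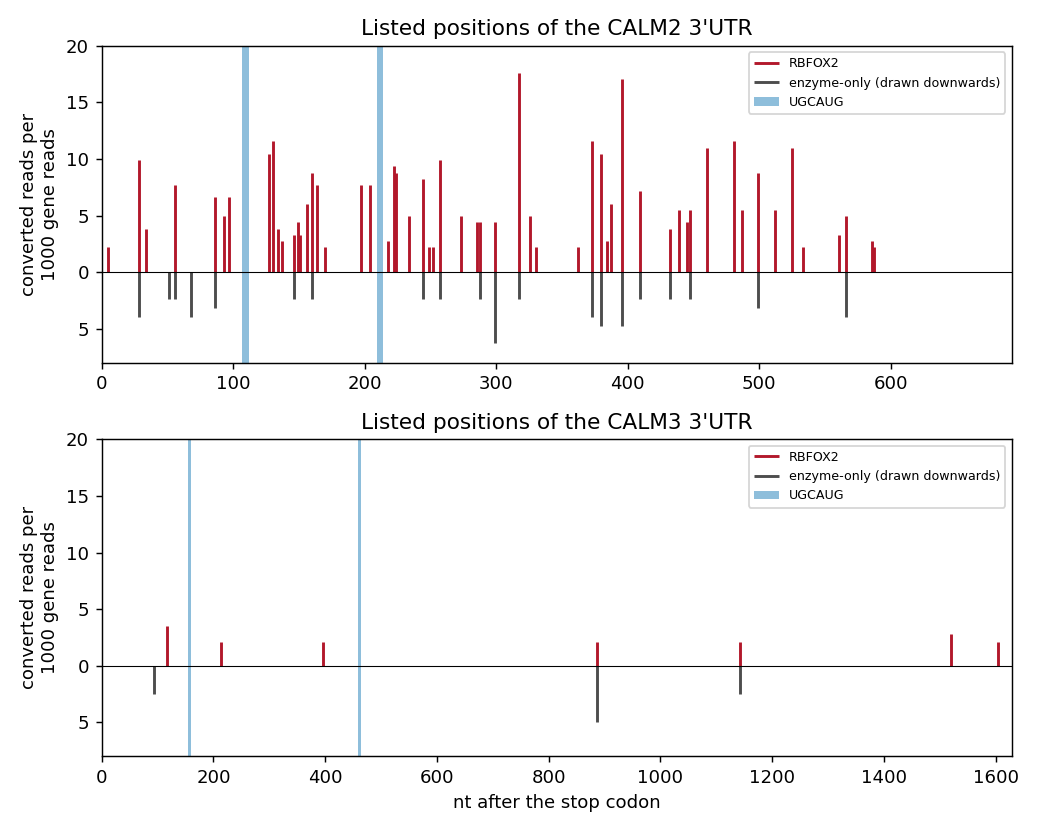
Converted reads per 1000 gene reads (vertical axis) at each listed position against nt after the stop codon (horizontal axis), for the CALM2 and CALM3 3′UTR. RBFOX2 values point upwards and enzyme-only values downwards, bars are single positions as listed, and blue bands mark UGCAUG; CALM2 positions spread over most of its 692 nt 3′UTR, while CALM3 has 8 listed in 1629 nt.

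The CALM2 positions lay mostly in the 3′UTR. Of the 74 RBFOX2 positions, 57 (77%, 65.8 to 86) were in the 3′UTR and the other 17 in coding sequence. The 3′UTR holds 60.9% of the cytosines of the main transcript, a ratio of 1.26 (1.08 to 1.41). Over the exons of all isoform models it holds 24.2%, a ratio of 3.19 (2.72 to 3.56). In the enzyme-only library 9 of the 10 at the common minimum were in the 3′UTR, and 76.9% (56.4 to 91) with every position as listed. Split in 4 equal stretches, the CALM2 3′UTR held 18, 17, 16 and 6 RBFOX2 positions from the stop codon outwards, with 193, 194, 216 and 48 converted reads. The last stretch had the fewest positions, with 30 cytosines against 32, 26 and 29 in the others, though 15 of its cytosines followed A or U against 21, 16 and 21. It reaches the annotated end at 47160084. The isoform models PB.6162.3 to PB.6162.5 end at 47160084 or 47160089, and PB.6162.6 to PB.6162.9 at 47160166 or 47160170. Of the CALM3 RBFOX2 positions, 7 of 11 were in the 3′UTR and 4 were coding. The CALM3 3′UTR holds 80.1% of main-transcript cytosines, a ratio of 0.794 (0.384 to 1.11). Over the exons of all models it holds 53.3%, a ratio of 1.19 (0.577 to 1.67).

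The CALM2 3′UTR was edited at a large share of its cytosines. Listed shares, here and below, count positions that reach the common minimum. With A or U 5′ of the cytosine, the sequence APOBEC1 is known to favour, 52 of 73 (71.2%, 59.4 to 81.2) were listed with the antibody and 8 of 73 (11%, 4.85 to 20.5) without it. With C or G 5′ the numbers were 5 and 1 of 44. In the CALM3 3′UTR, 6 of 193 (3.11%, 1.15 to 6.64) cytosines after A or U were listed with the antibody and 3 of 193 without it. Over all exons of the 672 genes, 44.3% of 631485 cytosines followed A or U, as did 8238 RBFOX2 and 4216 enzyme-only positions. The share of 3′UTR cytosines listed over those genes was not measured. In the RBFOX2 library the intervals of CALM2 and CALM3 did not overlap.

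The same held within coding sequence. With A or U 5′, 17 of 36 (47.2%, 30.4 to 64.5) CALM2 coding cytosines were listed in the RBFOX2 library, against 4 of 43 (9.3%, 2.59 to 22.1) in CALM3. No coding cytosine after C or G reached the common minimum in either gene, of 25 and 45. The minimum corresponds to 0.22% of the RBFOX2 reads of CALM2 and 0.213% of those of CALM3, but to 0.315% and 0.248% of their enzyme-only reads. The coverage is counted per gene, not per position, so a read that does not reach a position still counts in its total; how far this lowered the values was not tested.

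**Figure D2:**
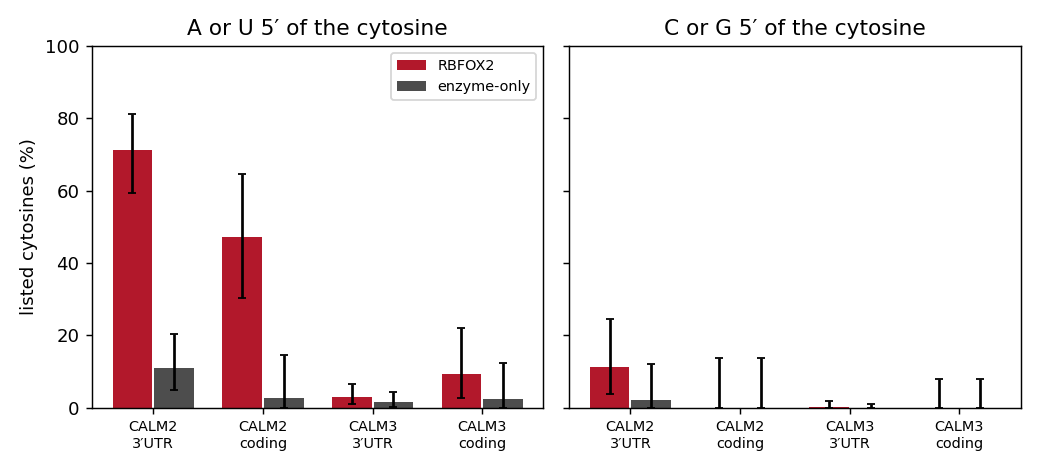
Share of cytosines of the main transcript listed at the common minimum (%, vertical axis) by gene and region, for cytosines with A or U 5′ (left) and C or G 5′ (right); error bars are exact 95% intervals over cytosines. The CALM2 3′UTR after A or U stands at 71.2% with the RBFOX2 antibody and at 11% without it.

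At the common minimum over all exons, 69 of 74 CALM2 RBFOX2 positions (93.2%, 84.9 to 97.8) had A or U 5′, where 58.7% of the exonic cytosines do. Of the enzyme-only positions, 9 of 10 did, and the share was 88.5% (69.8 to 97.6) with every position as listed. Over the 672 genes, the share was 88.7% of RBFOX2 positions and 81.1% of enzyme-only positions, against 44.3% of cytosines. In CALM2 the shares of both libraries overlapped within their intervals.

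Positions near UGCAUG were measured against all exonic cytosines of the same gene. In CALM2, 24 of 74 RBFOX2 positions (32.4%, 22 to 44.3) lay within 50 nt of UGCAUG, against 11.4% of its exonic cytosines, a ratio of 2.85 (1.94 to 3.9). In the enzyme-only library 2 of 10 did, a ratio of 1.76 (0.222 to 4.89). A further CALM2 copy, at chr2:47171640-47171645 in an exon of 1 of the 8 isoform models, holds 14 of the 55 exonic cytosines within 50 nt of UGCAUG, and none of the 14 was listed. Within the 3′UTR alone, the RBFOX2 share was 42.1% against 35% of cytosines and the ratio 1.2 (0.832 to 1.6), and over the exons of the main transcript it was 1.52 (1.03 to 2.08). Both restrictions were added after seeing the data. The ratio over all exons was thus over 2 times that within the 3′UTR, whose interval includes 1.

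By distance within the CALM2 3′UTR, the listed share in the RBFOX2 library was 66.7% (38.4 to 88.2) at 0 to 20 nt, 53.8% at 21 to 50 nt, 63.6% at 51 to 100 nt, 68.8% at 101 to 200 nt and 30.6% (18.3 to 45.4) beyond 200 nt. The bin of 101 to 200 nt also holds the GCAUG 332 nt after the stop codon. The last bin, which holds 49 cytosines, had the lowest share, and its interval overlapped those of the other 4. This bin reaches the annotated end of the 3′UTR at 47160084. The isoform models PB.6162.3 to PB.6162.5 end at 47160084 or 47160089, and PB.6162.6 to PB.6162.9 at 47160166 or 47160170. How far the shorter ends lowered the share of this bin was not tested. In the enzyme-only library none of 15 cytosines within 20 nt was listed. Over the 672 genes, 5.58% of RBFOX2 positions and 2.41% of enzyme-only positions lay within 50 nt of UGCAUG, against 2.41% of exonic cytosines.

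The positions nearest UGCAUG in CALM2 were 47160558 (4 nt 3′ of the motif, 5 reads), 47160572 (5 nt 5′, 14 reads), 47160554 (8 nt 3′, 17 reads), 47160552 and 47160679 (10 nt, 16 and 12 reads), 47160579 (12 nt 5′, 14 reads), 47160683 (14 nt 5′, 9 reads), 47160649 and 47160646 (15 and 18 nt 3′, 19 and 21 reads). None was listed in the enzyme-only library. The window of 50 nt around the copy at 209 nt held 12 of 20 cytosines with 134 converted RBFOX2 reads, and no enzyme-only position reached the minimum there. The window around the copy at 107 nt held 12 of 21 with 132 converted reads, against 2 with 9. In CALM3, 1 of 31 and 0 of 34 cytosines in the windows were listed, the 1 being 46609269, 39 nt 5′ of the nearer copy, with 5 reads. Each of those copies lay in 13 of 18 CALM3 isoform models, where each CALM2 copy lay in 7 of 8.

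**Figure D3:**
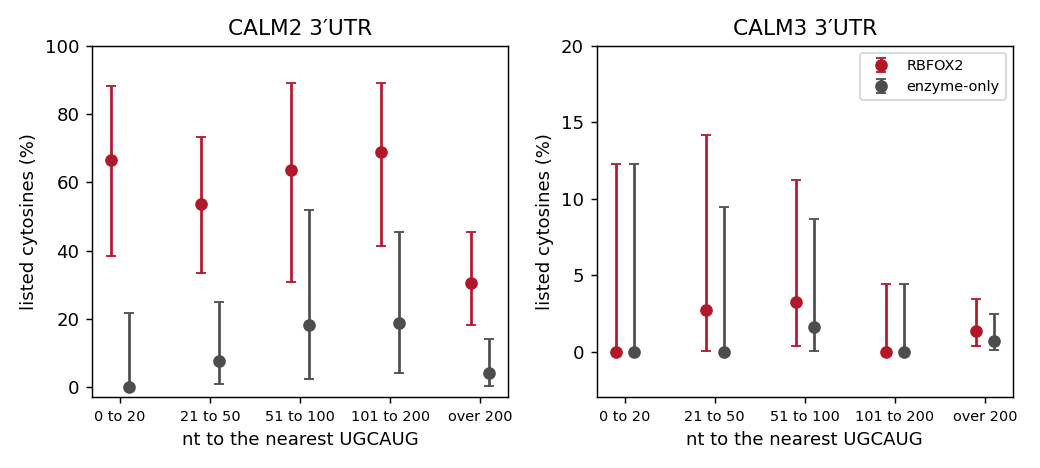
Share of 3′UTR cytosines listed at the common minimum (%, vertical axis) by distance in nt to the nearest UGCAUG (horizontal axis) in CALM2 (left, 0 to 100%) and CALM3 (right, 0 to 20%); points are shares and bars exact 95% intervals. CALM2 RBFOX2 points stay between 53.8% and 68.8% out to 200 nt and fall to 30.6% beyond, and CALM3 points stay at or below 3.23%.

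Since the proteins are identical, the coding sequences offer a matched comparison, added after seeing the data: 365 of 447 bases (81.7%) and 149 of 149 residues were the same. A cytosine stood at the same place in both genes at 56 coding positions. There 15 (26.8%, 15.8 to 40.3) were listed in CALM2 and 4 (7.14%, 1.98 to 17.3) in CALM3 in the RBFOX2 library. At the 14 of these with the same neighbouring bases and A or U 5′, 9 (64.3%, 35.1 to 87.2) were listed in CALM2 and 4 (28.6%, 8.39 to 58.1) in CALM3. Their converted reads per 1000 gene reads were 55.1 in CALM2 and 12.1 in CALM3 over the 56 positions, and 35.2 and 12.1 over the 14. CALM2 was thus higher by both measures in the RBFOX2 library, and its interval of the share overlapped that of CALM3 in both sets of positions. In the enzyme-only library 1 of the 56 positions was listed in each gene, at 3.15 (CALM2) and 4.14 (CALM3) per 1000 gene reads. Of the 14 positions, that library listed 0 in CALM2 and 1 in CALM3.

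The CALM2 coding edits would change the protein at 12 positions, if translated from the edited message. In the RBFOX2 library these were T147I (11 reads), T6I (8 reads), T118I, T80I and S18L (5 reads each), T27I (4 reads), and 2 that make stop codons, Q144* (9 reads) and Q136* (5 reads). Listed in the enzyme-only library were T63I (4 reads), T27I, T29I, L40F and A103V (3 reads each). Residues are counted from the initiator methionine. Threonine to isoleucine, through ACN codons, made 7 of the 10 amino acid replacements, where 12 of the 35 replacements possible at CALM2 coding cytosines are of this kind. The other 9 listed CALM2 coding positions and all 4 of CALM3 were synonymous, and all 4 in CALM3 were the third base of a GAC codon, as were 5 of the 9 in CALM2. Among all synonymous coding cytosines, 7 of 48 in CALM3 and 6 of 20 in CALM2 are of this kind. Codons 65, 79 and 81 were listed in both genes.

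**Figure D4:**
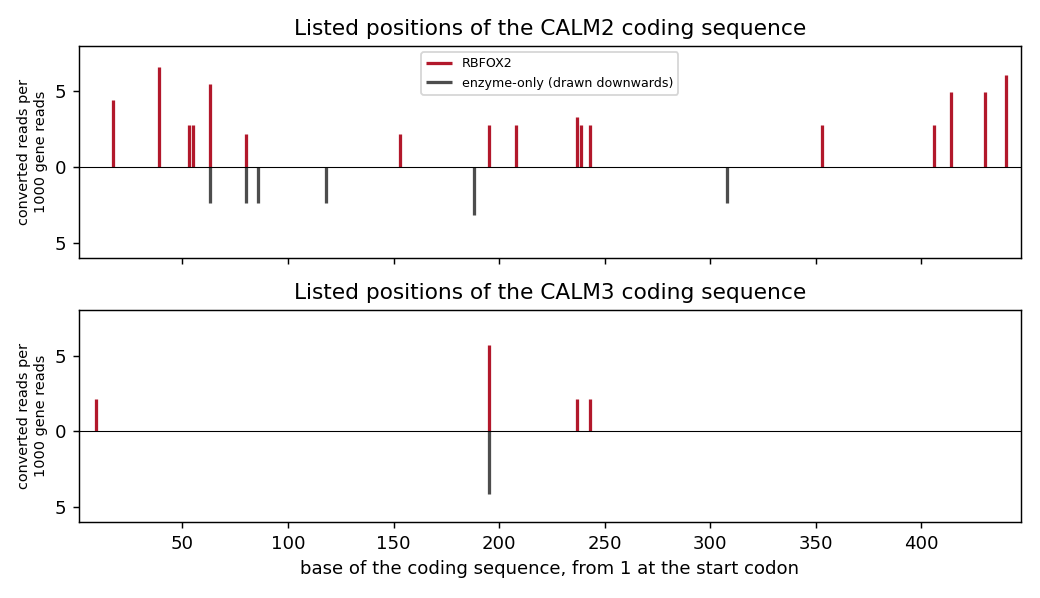
Converted reads per 1000 gene reads (vertical axis) at listed coding positions of CALM2 and CALM3 against the base of the 447-base coding sequence (horizontal axis), RBFOX2 upwards and enzyme-only downwards, as listed. CALM2 has 21 positions along the sequence and CALM3 has 4, 3 of them at bases also listed in CALM2.

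Over the 8 CALM2 isoform models, the share of cytosines listed at the common minimum, called editsC, ran from 22.2% to 45.5% for RBFOX2 and from 1.89% to 6.21% for enzyme-only, so every model was above its background. In the CALM2 model with the longest genomic span 74 of 191 (38.7%, 31.8 to 46) were listed, against 10 (5.24%). In CALM3 the 18 models ran from 1.27% to 3.42% and from 0.539% to 1.71%. Edits were counted per gene, so an edit counts for every model whose exons hold it, and the models are not independent.

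Genes of calmodulin's partners and targets were mostly too shallow to compare. Of 54 genes in a list of them, none had enough reads and positions in both libraries; 23 were listed in both but had too few, 9 were listed in 1 library only, 3 matched several loci and 19 were not listed.

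**Figure D5:**
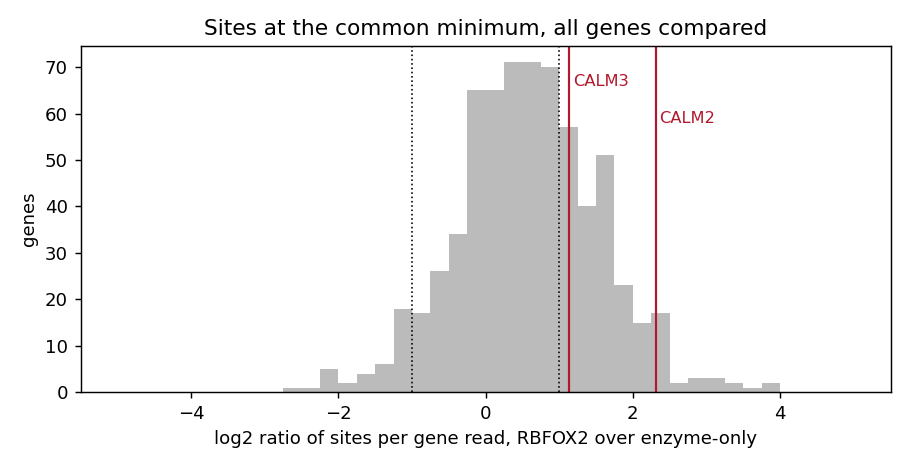
Number of genes (vertical axis) by log2 ratio of positions per gene read, RBFOX2 over enzyme-only (horizontal axis), for the 672 genes compared. Dotted lines mark 2-fold either way, and red lines CALM3 at 1.14 and CALM2 at 2.31.

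The genes most like CALM2 in converted reads per 1000 gene reads, over 2 libraries and 315 genes of similar depth, were PRDX3, a mitochondrial peroxiredoxin (361 and 77.6), EIF4G2, a translation factor (225 and 28.4), and SRP9, a signal recognition particle subunit (224 and 83.9). Those most like CALM3, of 485 genes, were SIVA1 (31.1 and 12.7), the respiratory subunit COX5A (27.4 and 12.6) and the helicase DDX39A (25.6 and 13.9). Distances are in log2 units, 0.941 for PRDX3 and 0.17 for SIVA1, so CALM2 had no close match.

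Some overlapping annotation limits the assignment. A lncRNA on the opposite strand overlies the CALM3 3′UTR, and a readthrough gene shares the 5′ part of CALM2 on the same strand. Whether reads of these neighbours were counted in the members was not tested. A further locus inside a CALM2 intron had 1 position in each library, with 1 of 10 and 1 of 7 reads.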

How the data were processed

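The authors sequenced full-length cDNA of fixed HEK293XT cells on a PacBio instrument. Per the methods, reads were aligned to hg38 with pbmm2 and C-to-U edits called with the authors' own code. Putative and annotated SNPs were then removed, also per the methods. Deposited per the file headers were, for each listed position, the count of converted reads, the count of reads of the gene, and the edit fraction (their ratio, all above 0.002). The authors also deposited a confidence score per position, which is not given for every position and was not used. Isoform models came with the deposit. Loci were assigned to GENCODE 44 genes on hg38 by the largest same-strand exonic overlap (bedtools 2.31.1). The members and the pathway list were chosen with earlier results of these data known. Positions were compared at the common minimum, the minimum of the deeper library of that gene, with fractions and shares given exact 95% intervals (scipy 1.17.1). Genes compared had at least 500 reads in both libraries and 5 positions over both, and past 2-fold was called with a pseudocount of 0.5. UGCAUG was searched on the gene's strand, over the members with introns and flanks and over the exons of the 672 genes with flanks. Its distance to a cytosine was genomic, and the copies named above lie in isoform exons. Named genes were the members, pathway genes past 2-fold, and the 3 nearest genes by log2 conversions per 1000 reads; named positions were those with 10 or more converted reads in either library, those in both libraries, those nearest UGCAUG and those changing an amino acid. Alternatives were every position as listed, 2 times the minimum, at least 10 converted reads, shared positions left out, scaling by all gene reads (2431345 and 2233600), motif windows of 20, 100 and 200 nt, GCAUG, weighting by converted reads, and 3-fold. Added after seeing the data were a common minimum edit fraction, thinning of the deeper library to the other's reads, and motif shares over the 3′UTR and over main-transcript exons. One gene that the naming rule and the pathway list held is not reported here, and the counts of the list leave it out. The code for the calls was tried on simulated data with planted higher genes only, so lower calls and calls close to 2-fold were not tested. Because each group was a single library, no p-values were calculated.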

Additional observations from a re-analysis of the deposited data

How the results depend on the processing

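No paired analysis was possible because each group was 1 library and the replicate numbers in the labels differ. Of 112 recomputed values, 72 stayed within the stated interval or 1.5 times of the main count. As listed, the CALM2 enzyme-only count was 26 and the ratio of converted reads 5.35, and the editsC of the CALM2 model of longest span in the enzyme-only library was 13.6%. At 2 times the minimum, CALM2 had 45 and 1 positions with a ratio of 54.2, and CALM3 had 1 and 1 with a ratio of 1.15; the CALM2 RBFOX2 shares were then 97.8% with A or U 5′, 86.7% in the 3′UTR and 13.3% coding. The single positions left in CALM2 enzyme-only gave 0% with A or U 5′, 100% in the 3′UTR, 0% coding and a motif ratio of 0, those in CALM3 RBFOX2 gave 100% with A or U 5′, 0% in the 3′UTR, 100% coding and a motif ratio of 0, and those in CALM3 enzyme-only gave 100% in the 3′UTR and 0% coding. At 10 or more converted reads, CALM2 had 32 and 0 positions and CALM3 0 and 0. With shared positions left out, the enzyme-only counts were 2 (CALM2) and 1 (CALM3), and the ratios 37.1 and 7.74. A minimum edit fraction left CALM3 with 3 RBFOX2 positions and turned its ratio to 0.86. Thinning left 58.7 and 7.97 expected RBFOX2 positions in CALM2 and CALM3. For CALM2 RBFOX2 the motif ratio was 1.87 at 200 nt, 1.2 within the 3′UTR and 1.52 over main-transcript exons; at 20 nt it was 0 for CALM2 enzyme-only and for CALM3 RBFOX2. Genes past 3-fold were 100 higher and 13 lower, and with at least 10 positions 21 were past 2-fold lower. CALM3, with 3 to 8 converted reads per position, is at the limit of this depth.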
